A study of Mus musculus with 12 samples.

Results

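DNA methylation in mouse embryonic stem cells (mESC) is set by a small group of enzymes, and the 10 genes described here encode them: *Dnmt1*, *Dnmt3a*, *Dnmt3b*, *Dnmt3l*, *Uhrf1*, *Uhrf2*, *Tet1*, *Tet2*, *Tet3* and *Tdg*. They were chosen by gene symbol, with earlier results of these data known but by no rule on their values, from 42450 gene identifiers, and all 10 were among the 19410 genes that passed the filter on low counts. PolyA+ RNA was sequenced from wild-type E14tg2a.4 cells, a male mESC line, grown on gelatin with LIF in medium with fetal calf serum. Before collection they were kept in serum-free ESGRO medium with LIF for 24 h or 72 h. All cells received 50 nM of siRNA duplexes with a lipid reagent: Srrm2-KD cells duplexes against *Srrm2*, which encodes a splicing factor of nuclear speckles, and Gl2-KD control cells a duplex against firefly luciferase, which mouse cells lack. Cells of the 72 h groups were transfected a second time with the same siRNA. The length of culture, the number of transfections and the time since serum was removed therefore cannot be told apart. Each of the 4 groups (Gl2-KD 24 h, Gl2-KD 72 h, Srrm2-KD 24 h and Srrm2-KD 72 h) had 3 libraries, numbered by the labels as experiments 1 to 3, which gives 12 libraries of 73933196 to 153343831 estimated counts. The paper describes the 3 as independent biological replicates, while the labels do not say that the experiments were separate cultures. The p-values measure the spread between these samples. Transient siRNA knockdown is partial: *Srrm2* stood at 442 to 962 CPM (counts scaled to a common library size by TMM) in the 6 Gl2-KD libraries and at 154 to 517 CPM in the 6 Srrm2-KD libraries, with the knockdown library below its control in all 6 pairs of 1 experiment and time.

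Cytosine methylation at CpG sites is written by 2 kinds of activity. DNMT3A and DNMT3B, helped by the catalytically inactive DNMT3L, methylate new sites, and DNMT1, which UHRF1 brings to hemimethylated DNA at the replication fork, copies the pattern to the new strand. TET1, TET2 and TET3 oxidise 5-methylcytosine, and the glycosylase TDG removes the most oxidised forms so that base excision repair can restore an unmodified cytosine. In mESC both activities run at once, and *Dnmt3b*, *Dnmt3l* and *Tet1* are known as genes highly expressed in pluripotent cells. The libraries carried all 7 pluripotency markers examined (*Pou5f1*, *Sox2*, *Nanog*, *Zfp42*, *Esrrb*, *Klf4* and *Tfcp2l1*), with a summed level of 3437 to 4439 CPM, while the 6 primitive endoderm markers summed to at most 4.58 CPM and the 5 mesoderm markers to at most 7.43 CPM. The 5 fibroblast markers summed to 4.30 to 24.7 CPM, the 4 neural ectoderm markers to 76.1 to 168 CPM and the 6 trophectoderm markers to 59.1 to 108 CPM, most of it *Tfap2c*, while *Cdx2* stayed at or below 0.209 CPM.

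Start regions of the 3 de novo factors are shown first, because the results below turn on these genes. The windows are the 300 bases around a RefSeq transcript start (GRCm38.p6), most of them before it, capitals mark CpG, the site that these enzymes methylate, and each is written on the plus strand, which is the strand of these genes.
*Dnmt3a*, chr12:3806910-3807209: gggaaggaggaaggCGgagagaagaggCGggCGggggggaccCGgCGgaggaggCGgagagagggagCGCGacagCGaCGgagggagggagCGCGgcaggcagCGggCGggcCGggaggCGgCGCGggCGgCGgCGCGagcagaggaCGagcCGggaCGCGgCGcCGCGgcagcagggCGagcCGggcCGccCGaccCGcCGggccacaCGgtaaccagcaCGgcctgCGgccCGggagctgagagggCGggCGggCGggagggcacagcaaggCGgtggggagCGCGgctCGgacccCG
*Dnmt3a*, chr12:3891494-3891793: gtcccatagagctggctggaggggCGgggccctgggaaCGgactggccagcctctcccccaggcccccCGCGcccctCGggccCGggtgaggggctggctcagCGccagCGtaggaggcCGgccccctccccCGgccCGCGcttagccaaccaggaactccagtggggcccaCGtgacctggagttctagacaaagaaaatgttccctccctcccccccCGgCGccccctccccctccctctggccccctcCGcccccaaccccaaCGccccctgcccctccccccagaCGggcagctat
*Dnmt3b*, chr2:153649199-153649498: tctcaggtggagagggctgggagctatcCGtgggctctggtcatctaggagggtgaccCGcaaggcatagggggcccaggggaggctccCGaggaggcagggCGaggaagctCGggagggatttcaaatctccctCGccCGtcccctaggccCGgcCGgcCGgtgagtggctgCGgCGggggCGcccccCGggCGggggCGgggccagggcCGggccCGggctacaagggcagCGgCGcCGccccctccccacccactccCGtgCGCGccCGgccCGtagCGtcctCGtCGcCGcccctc
*Dnmt3l*, chr10:78042037-78042336: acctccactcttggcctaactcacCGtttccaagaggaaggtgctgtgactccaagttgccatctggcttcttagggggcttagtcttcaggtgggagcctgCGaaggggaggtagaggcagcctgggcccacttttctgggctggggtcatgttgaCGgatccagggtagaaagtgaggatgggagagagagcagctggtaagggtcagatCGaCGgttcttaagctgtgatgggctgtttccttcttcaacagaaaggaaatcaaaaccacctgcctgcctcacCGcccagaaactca
*Dnmt3l*, chr10:78049592-78049891: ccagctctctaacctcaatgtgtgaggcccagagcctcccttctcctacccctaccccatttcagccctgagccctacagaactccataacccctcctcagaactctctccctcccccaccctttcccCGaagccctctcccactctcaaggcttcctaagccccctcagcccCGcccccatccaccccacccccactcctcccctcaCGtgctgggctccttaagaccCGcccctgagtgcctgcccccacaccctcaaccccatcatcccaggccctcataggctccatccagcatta
*Dnmt3l*, chr10:78055085-78055384: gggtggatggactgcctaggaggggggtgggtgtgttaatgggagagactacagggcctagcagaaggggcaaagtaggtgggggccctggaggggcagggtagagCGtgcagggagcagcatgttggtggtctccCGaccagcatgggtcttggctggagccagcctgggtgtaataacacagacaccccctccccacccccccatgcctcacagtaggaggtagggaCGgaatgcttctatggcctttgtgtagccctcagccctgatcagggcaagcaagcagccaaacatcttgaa
The upstream *Dnmt3a* window shown held 47 CpG, a number that 1.44% of the 32851 RefSeq windows of this length reached. In it 3 GENCODE M21 coding transcripts start. Another RefSeq window of *Dnmt3a*, chr12:3806730-3807029, overlaps it and is not shown. That window held 46 CpG, and no GENCODE M21 coding transcript starts in it. The internal *Dnmt3a* window held 18 CpG and is the start of 2 shorter coding transcripts. *Dnmt3b* had a single window with 30 CpG, in which 9 coding transcripts start. The 3 *Dnmt3l* windows were CpG-poor, with 6, 4 and 3 CpG, below the median of 7 over all windows. In all, RefSeq gave 17 windows for the 10 genes, and the highest CpG number among them was the 57 of *Tet2*. The GC box GGGCGG, searched on both strands, was in both *Dnmt3a* windows shown and the window not shown. It was also in the *Dnmt3b* window and the first 2 *Dnmt3l* windows, and in 35.7% of all windows. The E-box CACGTG was in the internal *Dnmt3a* window and the second *Dnmt3l* window, and in 7.15% of all windows. The second *Dnmt3l* window also held TTCNNNGAA, the core of the STAT motif, which 8.30% of all windows held. CCAAT, found in 37.4% of all windows, was in none of the 6 windows shown. GGGCGG and CACGTG each contain a CpG, so that these matches overlap the marked sites. The deposited counts are 1 value per gene and do not say from which start the RNA came.

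To compare the genes with each other, CPM was divided by the length of the longest coding transcript (CPM per kb). The order of the medians over the 12 libraries placed the maintenance factor *Uhrf1* first at 170 CPM per kb (range 127 to 186), followed by *Dnmt3l* at 144 (65.7 to 219), *Dnmt3b* at 97.6 (63.5 to 156) and *Dnmt1* at 67.2 (44.4 to 88.9). *Tet1* followed at 24.3 CPM per kb (18.7 to 105), *Tdg* at 19.05 (16.3 to 22.0), *Uhrf2* at 12.4 (8.45 to 15.7) and *Dnmt3a* at 11.7 (8.03 to 20.8). *Tet3* at 0.512 CPM per kb (0.276 to 1.23) and *Tet2* at 0.242 (0 to 2.12) were the lowest. Among neighbours in this order, the ranges separated only *Tdg* from *Uhrf2* and *Dnmt3a* from *Tet3*, and every other neighbouring pair overlapped. With all annotated exons merged as the length, *Uhrf2* and *Dnmt3a* changed places and the other 8 genes kept theirs. *Dnmt3b* therefore exceeded its paralog *Dnmt3a* per length in all 12 libraries, by 5.30-fold to 10.7-fold, or by 7.70-fold to 15.6-fold with merged exons. *Tet1* was the TET gene with the highest level in every library.

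**Figure D1:**
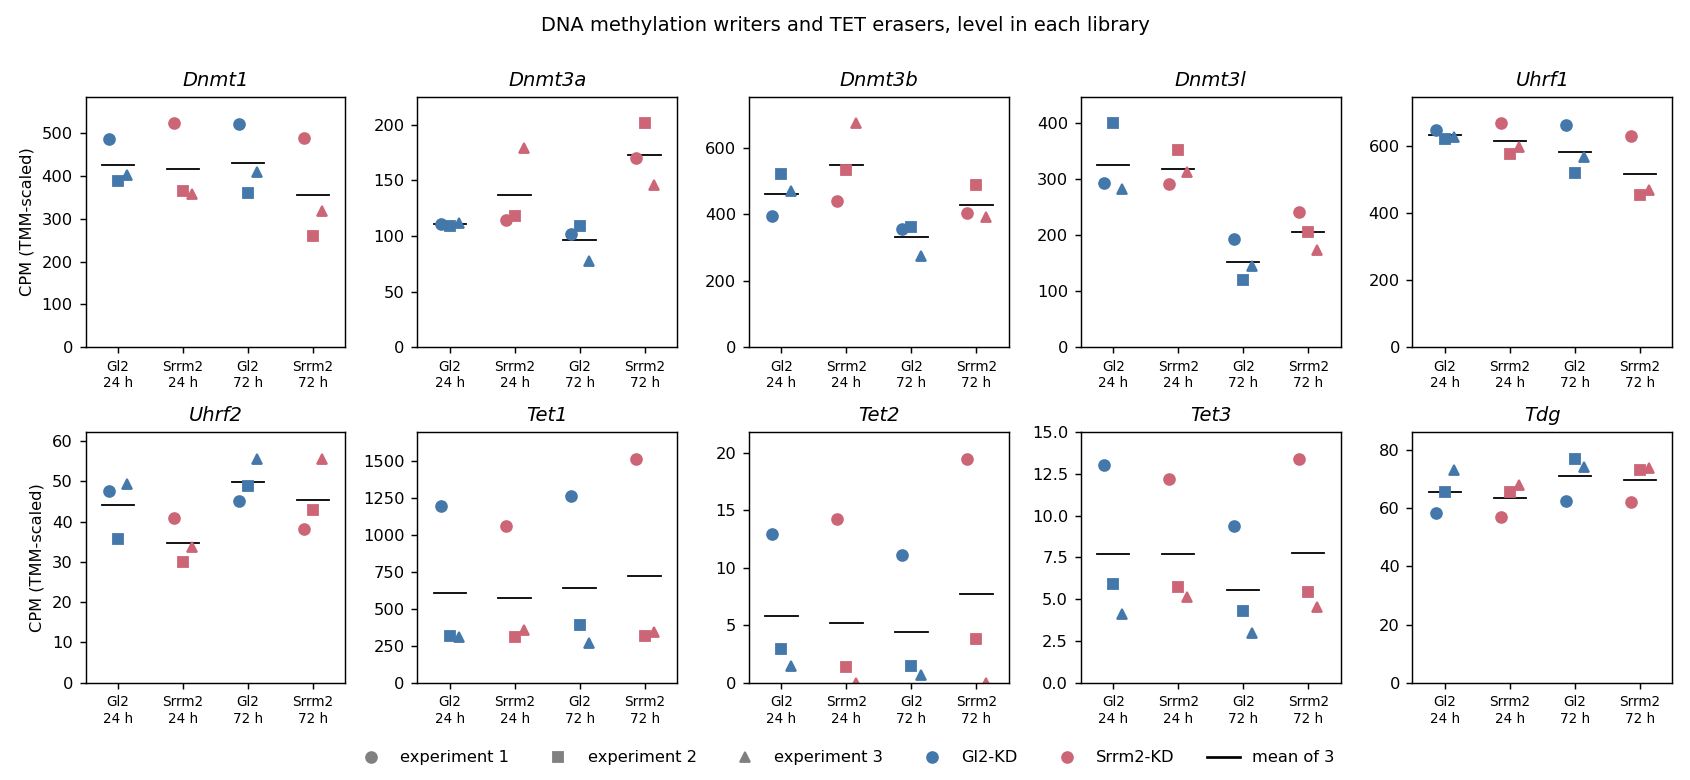
Level of each of the 10 genes (y axis, CPM scaled by TMM, from 0) in the 12 libraries, by siRNA and time (x axis). Points are libraries, shapes mark the experiment and lines are means of 3. In *Dnmt3a* at 72 h the Srrm2-KD libraries (146 to 201) lie above the Gl2-KD libraries (77.7 to 109), in *Dnmt3l* both 72 h groups lie below both 24 h groups, and in the TET genes the circles of experiment 1 stand above the rest.

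The first comparison asked whether 72 h of *Srrm2* knockdown moved the methylation genes. *Dnmt3a* had the largest difference of the 9 genes other than *Tet2*. Its 72 h levels were 102, 109 and 77.7 CPM in experiments 1 to 3 of Gl2-KD, and the Srrm2-KD levels were 171, 201 and 146 CPM. All Srrm2-KD libraries lay above all Gl2-KD libraries. The log2 fold change was 0.84 (SE 0.19, 95% interval 0.43 to 1.25, 1.79-fold), with 0.74, 0.88 and 0.91 in the 3 experiments. In the edgeR quasi-likelihood test the unadjusted p was 0.000928 and the p adjusted over all genes (Benjamini-Hochberg) was 0.144, so that *Dnmt3a* was not called at 0.05, and 0 of 19410 genes were (0% of the background). The targeted gene was not called either: *Srrm2* had a log2 fold change of -1.16 (edgeR adjusted p = 0.0991) at 72 h and of -1.22 (0.0663) at 24 h, while DESeq2 and limma-voom called it at both times. DESeq2 gave *Dnmt3a* an adjusted p of 0.00264 and limma-voom one of 0.103. Over 28 alternative settings its log2 fold change lay between 0.67 and 0.97, its adjusted p between 0.00264 and 1, and it was called in 4, and without the 4 libraries of experiment 1 it was 0.89 (SE 0.25, adjusted p = 0.191). At 72 h the 7 pluripotency markers summed to 3648 to 3932 CPM in Gl2-KD and to 3437 to 3515 CPM in Srrm2-KD, and the 6 trophectoderm markers to 96.6 to 108 CPM and to 59.1 to 89.7 CPM. Neither pair of ranges overlapped, and their part in the *Dnmt3a* difference was not tested. In bulk RNA, fewer cells of a type and less RNA per cell cannot be told apart, and this holds for each difference below.

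*Dnmt3b*, the other de novo methyltransferase, stood at 355, 362 and 274 CPM in Gl2-KD at 72 h and at 403, 488 and 392 CPM with the *Srrm2* duplexes. These groups did not overlap either, by a margin of 362 against 392 CPM, and the log2 fold change was 0.36 (SE 0.15, edgeR adjusted p = 0.355). *Dnmt3l* was at 194, 120 and 146 CPM in Gl2-KD and at 242, 205 and 173 CPM in Srrm2-KD. Its groups overlapped, and its log2 fold change of 0.43 (SE 0.18, edgeR adjusted p = 0.352) was positive in 3 of 3 experiments. For the 3 de novo genes all 9 differences within an experiment were thus positive at 72 h, and 2 of the 3 were without overlap, which held for 2.99% of all genes tested in the higher direction.

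The maintenance genes were lower in value. At 72 h *Dnmt1* was at 521, 359 and 409 CPM in Gl2-KD against 489, 260 and 317 CPM after knockdown, so that its log2 fold change was -0.30 (SE 0.11, edgeR adjusted p = 0.286), negative in 3 of 3 experiments although the groups overlapped. *Uhrf1* was at 665, 520 and 568 CPM against 630, 455 and 469 CPM (log2 fold change -0.18, SE 0.09, edgeR adjusted p = 0.456), also lower in 3 of 3. *Uhrf2*, a relative of *Uhrf1*, differed by -0.14 (95% interval -0.46 to 0.18). Of the erasers, *Tet3* was at 9.37, 4.32 and 3.01 CPM in Gl2-KD and at 13.4, 5.41 and 4.53 CPM in Srrm2-KD. Its log2 fold change of 0.48 (SE 0.15) had an edgeR adjusted p of 0.238 and a DESeq2 adjusted p of 0.0239, and over the 28 alternatives the adjusted p ranged from 0.0239 to 1. *Tet1* differed by 0.09 (95% interval -0.23 to 0.41), higher in 2 of 3 experiments, and *Tdg* by -0.03 (-0.21 to 0.15). A p above the threshold does not show that either was equal in both groups.

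In counts, edgeR called 0 of the 10 genes at 72 h, limma-voom 0 (background 0.0206%) and DESeq2 2 (*Dnmt3a* and *Tet3*, background 2.79%). At an unadjusted p below 0.05 edgeR had 5 of the 10, *Dnmt3a*, *Dnmt3b*, *Dnmt3l* and *Tet3* higher and *Dnmt1* lower, against 12.9% of all genes (5.01% higher and 7.86% lower). The median log2 fold change of the 10, with *Tet2* counted in, was 0.16 beside -0.02 over all genes tested. For the 9 genes other than *Tet2* the middle value was the 0.09 of *Tet1*. The direction was the same in all 3 experiments for 7 of the 9 genes other than *Tet2*, as it was for 41.9% of all genes.

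**Figure D2:**
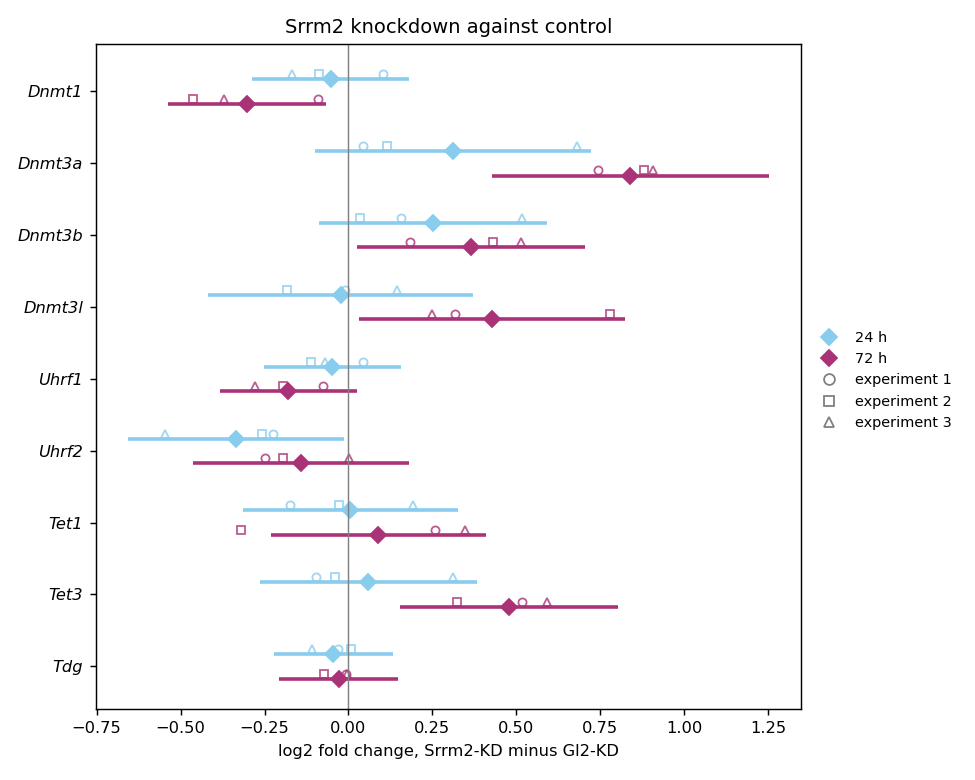
Log2 fold change of Srrm2-KD over Gl2-KD (x axis) for 9 genes at 24 h and 72 h. Diamonds and lines are edgeR estimates with 95% intervals and open symbols are the differences within each experiment. At 72 h the *Dnmt3a* values of 0.74 to 0.91 lie close together and to the right of 0, while at 24 h experiment 3 (0.68) stands away from the other two.

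At 24 h *Dnmt3a* was at 111, 109 and 112 CPM in Gl2-KD and at 115, 118 and 179 CPM in Srrm2-KD. The groups did not overlap, as for 1.89% of all genes in the higher direction, but the Srrm2-KD libraries of experiments 1 and 2 lay just above the controls, and the log2 fold change of 0.31 (SE 0.19) was -0.025 without the Srrm2-KD library of experiment 3. The same library had the highest *Dnmt3b* level of all 12, 673 CPM, against 440 and 534 CPM in the other Srrm2-KD libraries at 24 h. *Uhrf2* was at 47.7, 35.7 and 49.3 CPM in Gl2-KD and at 40.8, 29.9 and 33.8 CPM in Srrm2-KD (log2 fold change -0.33, SE 0.15). It was lower in 3 of 3 experiments and was the 1 gene of the 10 with an unadjusted p below 0.05, which 2.62% of all genes had. The edgeR adjusted p was 1 for each of the 10 genes, and 0 of 10 were called by edgeR (background 0%), by DESeq2 (background 0.129%) and by limma-voom (background 0.0103%). The change of the knockdown effect from 24 h to 72 h, tested as an interaction, was 0.53 (SE 0.26, 95% interval -0.05 to 1.11, edgeR adjusted p = 1) for *Dnmt3a* and 0.42 (SE 0.21, 95% interval -0.04 to 0.88) for *Tet3*. In this test edgeR and limma-voom called 0 of the 10 genes (background 0% for both), DESeq2 called 0 (background 0.0103%), and 0 had an unadjusted edgeR p below 0.05 (background 1.64%). Averaged over both times, *Dnmt3a* was 1.49-fold higher in Srrm2-KD (log2 0.58, SE 0.13, edgeR adjusted p = 0.114), 0 of 10 genes were called by edgeR (background 0.067%) or limma-voom (0.474%), and DESeq2 called *Dnmt3a* (adjusted p = 0.00341, background 3.78%), with adjusted p-values from 0.00341 to 0.958 over 27 alternatives. At an unadjusted p below 0.05 edgeR had 5 of the 10, against 13.6% of all genes.

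The balance between the paralogs was read within each library, where library scaling cancels. At 72 h *Dnmt3b* exceeded *Dnmt3a* per kb by 7.80-fold, 7.44-fold and 7.92-fold in the Gl2-KD libraries and by 5.30-fold, 5.44-fold and 6.02-fold in the Srrm2-KD libraries. The groups did not overlap (7.72 ± 0.249 against 5.59 ± 0.384, SD, n = 3), and the two-sided exact permutation p was 0.1, the smallest that 3 against 3 allows. At 24 h the same ratio was 9.38 ± 1.39 for Gl2-KD and 9.07 ± 0.941 for Srrm2-KD (SD, n = 3, exact permutation p = 0.9). The ratio of *Dnmt3l* to the sum of *Dnmt3a* and *Dnmt3b*, the cofactor to its partner enzymes, was 0.986 ± 0.256 and 0.979 ± 0.191 at 72 h (SD, n = 3, exact permutation p = 1). At 72 h the ratio of *Uhrf1* to *Dnmt1* was 2.25 ± 0.145 for Gl2-KD and 2.47 ± 0.376 for Srrm2-KD (SD, n = 3, exact permutation p = 0.4), higher in 3 of 3 experiments, a pairing that this test does not use. These are 4 of the 12 ratio comparisons made, and with exact p-values of at least 0.1 none could pass a correction.

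The second comparison asked how the genes differed between 24 h and 72 h of culture. *Dnmt3l* fell. It was at 293, 400 and 282 CPM at 24 h and at 194, 120 and 146 CPM at 72 h in Gl2-KD. All 72 h libraries lay below all 24 h libraries, the log2 fold change was -1.09 (SE 0.18, 0.471-fold) and the edgeR adjusted p was 0.0245. It was the 1 gene of the 10 called in Gl2-KD, where 1.45% of all genes were called and 0.706% were called lower. There DESeq2 called 2 (*Dnmt3l* and *Tet3*, background 6.89%) and limma-voom 1 (*Dnmt3l*, 2.48%), 3 had an unadjusted edgeR p below 0.05 (16.8%), and *Dnmt3l* and *Dnmt3b* were without overlap in the lower direction, as were 3.36% of all genes. In Srrm2-KD *Dnmt3l* was at 291, 352 and 312 CPM at 24 h and at 242, 205 and 173 CPM at 72 h, again without overlap (3.9% of all genes in the lower direction), and the log2 fold change was -0.64 (SE 0.18, edgeR adjusted p = 0.127, DESeq2 adjusted p = 0.0250, from 0.0250 to 1 over 28 alternatives). edgeR called 0 of the 10 genes there (background 0.551%), limma-voom 0 (1.33%) and DESeq2 1 (5.47%), and 5 had an unadjusted p below 0.05 (16.3%). The difference between these 2 declines is the interaction tested above, 0.45 (SE 0.25, 95% interval -0.11 to 1.01). In Gl2-KD the call was kept in 19 of 28 alternatives and its adjusted p ranged from 3.71e-06 to 0.884. It was lost without any 1 of the 3 libraries at 24 h (adjusted p = 0.05965, 0.143 and 0.0662 without experiments 1 to 3), without the 72 h library of experiment 2 or 3 (0.140 and 0.0820), without all of experiment 2 (log2 fold change -0.79, adjusted p = 0.521) or of experiment 3 (-1.16, adjusted p = 0.102), with no term for the experiment (0.884), and with a term for each experiment and siRNA together (0.0892).

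*Dnmt3b* moved with *Dnmt3l*. It was at 395, 522 and 470 CPM at 24 h and at 355, 362 and 274 CPM at 72 h in Gl2-KD, without overlap (log2 fold change -0.47, SE 0.15, edgeR adjusted p = 0.153), and at 440, 534 and 673 CPM against 403, 488 and 392 CPM in Srrm2-KD (-0.36, SE 0.15, adjusted p = 0.282). Averaged over both siRNAs, *Dnmt3l* fell by 0.86 on the log2 scale (SE 0.13, edgeR adjusted p = 0.0036) and *Dnmt3b* by 0.42 (SE 0.11, edgeR adjusted p = 0.036), and these were 2 of 10 genes called where 10.5% of all genes were called and 4.98% were called lower. DESeq2 called 3, *Tet3* besides these (background 17%), limma-voom called the same 2 genes (12.8%), and 6 of the 10 had an unadjusted edgeR p below 0.05 (27%). *Dnmt3l* was lower at 72 h in 6 of 6 pairs of libraries of the same experiment and siRNA, and so was *Dnmt3b*. The averaged call held in 25 of 27 alternatives for *Dnmt3l* and in 14 of 27 for *Dnmt3b*. For *Dnmt3b* it was lost without any 1 of 9 libraries (Gl2-KD at 24 h of experiments 1 to 3 and at 72 h of 2 and 3, Srrm2-KD at 24 h of 2 and at 72 h of 1 to 3), with adjusted p-values from edgeR of 0.0505 to 0.104, and without all of experiment 3 (0.136). Without experiment 2 neither was called (0.134 for *Dnmt3l* and 0.287 for *Dnmt3b*), and without experiment 1 edgeR called 4 genes, *Dnmt3l* (-1.08, adjusted p = 0.00407), *Dnmt3b* (-0.56, adjusted p = 0.0253), *Uhrf1* (-0.28, adjusted p = 0.0386) and, in the higher direction, *Uhrf2* (0.46, adjusted p = 0.0144). The ratio of *Dnmt3l* to *Dnmt3a* plus *Dnmt3b* in Gl2-KD was 1.50 ± 0.193 at 24 h and 0.986 ± 0.256 at 72 h (SD, n = 3, exact permutation p = 0.1, the smallest possible). Without experiment 2 its log2 difference was -0.32 in place of -0.64. In Srrm2-KD the same ratio was 1.27 ± 0.249 at 24 h and 0.979 ± 0.191 at 72 h (SD, n = 3, exact permutation p = 0.2). The ratio of *Dnmt3b* to *Dnmt3a* was also lower at 72 h, in every experiment of both siRNAs. It went from 9.38 ± 1.39 to 7.72 ± 0.249 in Gl2-KD and from 9.07 ± 0.941 to 5.59 ± 0.384 in Srrm2-KD (SD, n = 3, exact permutation p = 0.1 for each).

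*Dnmt3a* was not called with time. Its log2 fold change from 24 h to 72 h was -0.20 (95% interval -0.61 to 0.21) in Gl2-KD and 0.33 (-0.09 to 0.74) in Srrm2-KD. *Tet3* was lower at 72 h in Gl2-KD in 3 of 3 experiments, by -0.48, -0.45 and -0.46 on the log2 scale (edgeR adjusted p = 0.143, DESeq2 adjusted p = 0.0141, from 0.0141 to 1 over 28 alternatives), and differed by -0.04 in Srrm2-KD. *Dnmt1* differed by 0.00 (95% interval -0.23 to 0.24) in Gl2-KD and *Tet1* by 0.08 (-0.24 to 0.40). *Tdg* was at 57.0 to 73.1 CPM in the 6 libraries at 24 h and at 62.2 to 76.9 CPM at 72 h, higher at 72 h in 6 of 6 pairs, with an averaged log2 fold change of 0.13 (SE 0.06, edgeR adjusted p = 0.183). The summed level of the 7 pluripotency markers was 4063 to 4439 CPM at 24 h and 3648 to 3932 CPM at 72 h in Gl2-KD, and 3840 to 4363 CPM and 3437 to 3515 CPM in Srrm2-KD, without overlap in either. The 6 trophectoderm markers summed to 63.3 to 83.5 CPM at 24 h and to 96.6 to 108 CPM at 72 h in Gl2-KD, also without overlap, and to 59.7 to 75.8 CPM and 59.1 to 89.7 CPM in Srrm2-KD. The 4 neural ectoderm markers summed to 96.7 to 168 CPM over both siRNAs at 24 h and to 76.1 to 111 CPM at 72 h. The part of these markers in the *Dnmt3l* and *Dnmt3b* values was not tested.

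**Figure D3:**
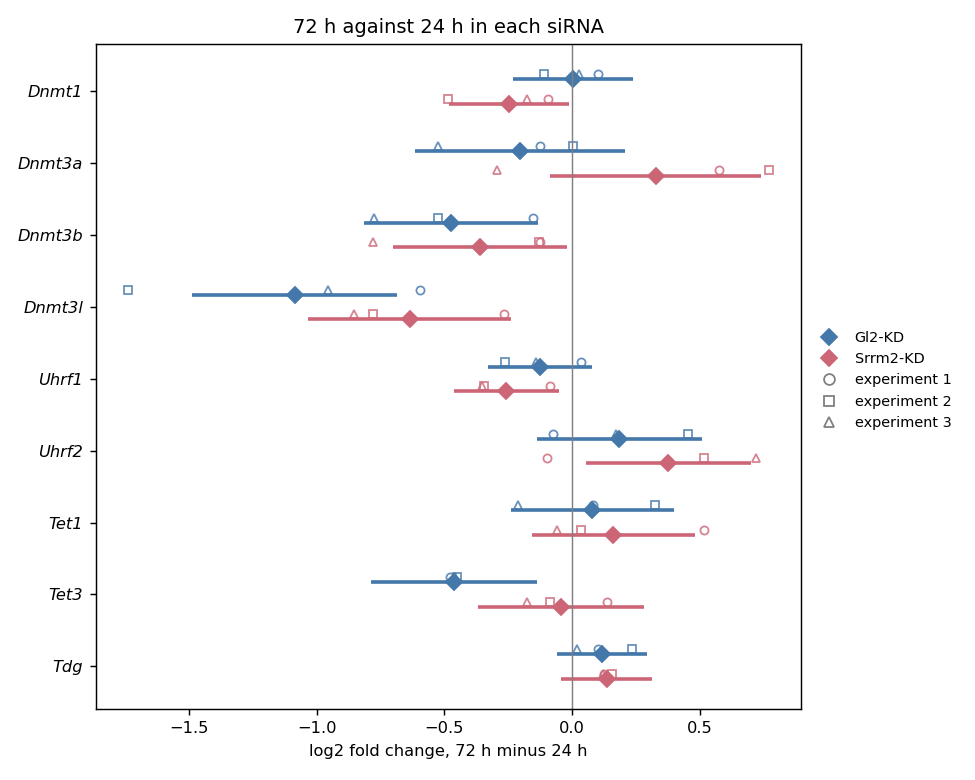
Log2 fold change of 72 h over 24 h (x axis) for 9 genes in Gl2-KD and Srrm2-KD. Diamonds and lines are edgeR estimates with 95% intervals and open symbols are the differences within each experiment. All 6 *Dnmt3l* symbols lie to the left of 0, from -0.27 to -1.74, and so do all 6 of *Dnmt3b*.

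The TET genes differed between experiments. *Tet1* was at 1194 and 1265 CPM in the Gl2-KD libraries of experiment 1 and at 1058 and 1513 CPM in its Srrm2-KD libraries, and at 268 to 393 CPM in the 8 libraries of experiments 2 and 3. The lowest library of experiment 1 thus lay above the highest of the others for *Tet1*. In the same order *Tet3* was at 13.0, 9.37, 12.2 and 13.4 CPM in experiment 1 and at 3.01 to 5.91 CPM in the others, again without overlap. The share of all genes without such overlap was not counted. Between experiment 1 and the mean of the others edgeR called 53.4% of all genes, so that such a separation is not particular to these genes by itself. *Tet2* was at 12.9, 11.1, 14.3 and 19.5 CPM in experiment 1, at 1.35 to 3.81 CPM in experiment 2, and in experiment 3 at 1.46 and 0.700 CPM in Gl2-KD and at 0 in both Srrm2-KD libraries. The counts are model estimates, so that *Tet2* is given as listed at 0 there and no fold change of *Tet2* between treatments is reported.

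Experiment 1 minus the mean of experiments 2 and 3 was 1.94 (SE 0.10, edgeR adjusted p = 2.61e-07) for *Tet1*, 1.34 (SE 0.11, adjusted p = 2.58e-06) for *Tet3* and 0.51 (SE 0.08, adjusted p = 0.000247) for *Dnmt1* on the log2 scale. *Tet2* and *Uhrf1* (0.25) were also called higher and *Tdg* (-0.25) lower, so that 6 of 10 genes were called, beside 53.4% of all genes. The experiment is not a treatment, and its difference moved with transcript length over all genes. The median log2 fold change was -0.71 for the 896 genes whose longest coding transcript is shorter than 1000 bases and was higher in each longer class, up to 1.04 for the 369 genes of 10000 bases or more. *Srrm2* itself was 1.20 higher in experiment 1. *Tet1* (14369 bases) lay above the upper quartile of 1.50 of its class, and *Tet3* (10904 bases) lay inside its class. *Dnmt3a* (9685 bases) lay at -0.06, below the lower quartile of 0.41 of its class, and *Dnmt3l* (1822 bases) at 0.14 lay above the upper quartile of -0.18 of its own. With offsets that remove each library's trend with length, a setting added after seeing the data, *Tet1* was 0.84 higher in experiment 1 and *Tet3* 0.42 higher, both still called, *Dnmt1* was at 0.03 and *Uhrf1* at 0.14 and no longer called, and 3 genes were newly called by edgeR: *Dnmt3a* at -0.91 (adjusted p = 0.00069), *Dnmt3b* at -0.42 (adjusted p = 0.0151) and *Dnmt3l* at 0.44 (adjusted p = 0.0271). Between experiments 2 and 3 none of the 10 genes was called, where 14.2% of all genes were.

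The treatment comparisons are made within experiments and carried little of this trend. At 72 h the medians of the length classes ran from -0.08 to 0.04 for the knockdown, and with the length offsets *Dnmt3a* was at 0.91 (edgeR adjusted p = 0.126) and the *Dnmt3l* decline in Gl2-KD at -1.10 (edgeR adjusted p = 0.0257).

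**Figure D4:**
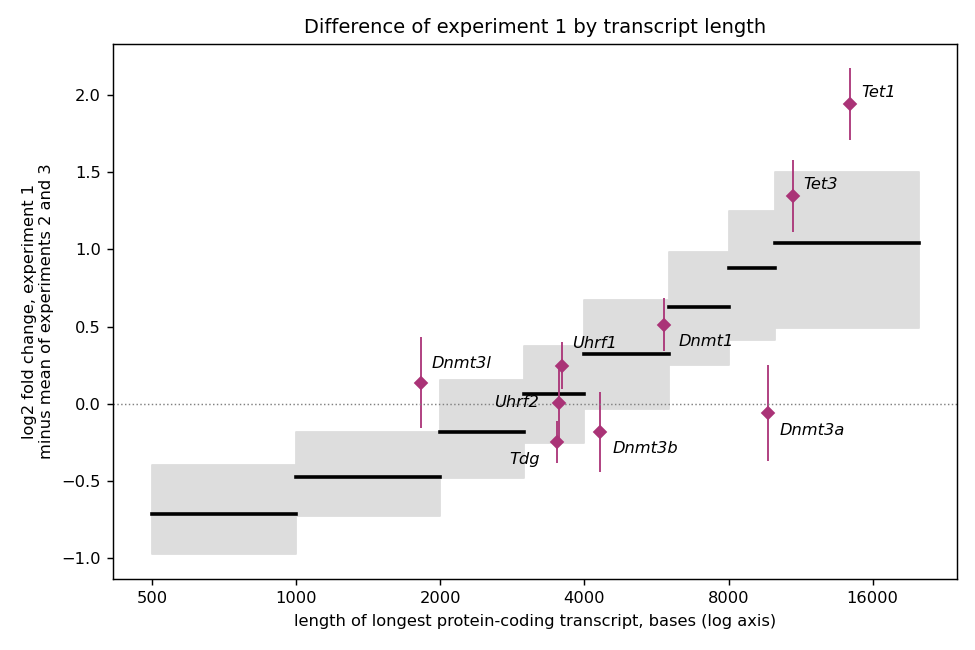
Log2 fold change of experiment 1 over the mean of experiments 2 and 3 (y axis) against the length of the longest coding transcript (x axis, log scale). Black lines and grey boxes are the median and quartiles of all genes of each length class, the outermost of which are open-ended, and diamonds with 95% intervals are 9 of the 10 genes. *Tet1* at 1.94 stands above the box of its class and *Dnmt3a* at -0.06 below its own.

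The wider pathway was read from 5 lists with the same tests, chosen by function. The base excision repair list (12 genes) also holds glycosylases other than TDG and the *Gadd45* genes, so that not all of it acts after TDG. In it edgeR called 3 genes higher and 1 lower with time as the mean of both siRNAs. The list's median log2 fold change was 0.17 beside 0.01 over all genes. Of all genes, 10.5% were called in this comparison, 5.52% higher and 4.98% lower, which is the background for each list below. *Neil2*, a glycosylase of oxidised bases, rose by 0.92 (SE 0.16, edgeR adjusted p = 0.0074), *Smug1*, a uracil glycosylase, by 0.44 (SE 0.09, adjusted p = 0.017) and *Polb*, the repair polymerase, by 0.31 (SE 0.07, adjusted p = 0.026). *Gadd45a*, a stress-induced gene linked to demethylation, was the 1 called lower. In the list of partners, recruiters and regulators (15 genes) edgeR called 3 lower and none higher, while in value 12 were lower and 3 higher. *Ehmt2*, a histone H3K9 methyltransferase, fell by 0.31 (SE 0.06, edgeR adjusted p = 0.013), and *Zfp57* and *Trim28*, which keep methylation at imprinted loci, each fell by 0.26 (adjusted p = 0.030 and 0.036). The list's median was -0.16.

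Among 8 methyl-CpG readers *Zbtb4* was the only one called with time, at 0.90 (SE 0.21, edgeR adjusted p = 0.025). *Zbtb4* is low, at 1.01 ± 0.434 CPM in Gl2-KD at 24 h and 1.75 ± 0.339 CPM at 72 h (SD, n = 3). Of 10 genes that supply the methyl donor or alpha-ketoglutarate, the cofactor of TET enzymes, *Mtrr*, which keeps methionine synthase active, rose by 0.41 (edgeR adjusted p = 0.021). In value 2 of these 10 were higher with time and 8 lower, with a median log2 fold change of -0.05. Other calls in this list are not reported here. The germline list holds 12 genes whose promoters are methylated in many cells, 11 of which passed the filter (*Asz1* did not). edgeR called 3 higher with time and none lower: *Sycp3*, of the meiotic chromosome axis, at 1.48 (SE 0.21, edgeR adjusted p = 0.0030), *Mael* at 0.62 (adjusted p = 0.036) and *Ddx4* at 0.37 (adjusted p = 0.022). In value 7 genes were higher and 4 lower. At an unadjusted edgeR p below 0.05 the counts were 3 and 2, against 27% of all genes. In experiment 1 *Mael* went from 11.4 to 10.8 CPM in Gl2-KD and from 10.9 to 11.1 CPM in Srrm2-KD, while it rose in experiments 2 and 3. *Sycp3* was at 65.0, 42.4 and 138 CPM in Gl2-KD at 24 h and at 171, 186 and 217 CPM at 72 h, and the Srrm2-KD libraries went from 58.7, 43.1 and 138 CPM to 143, 241 and 262 CPM. Its 72 h libraries lay above all 24 h libraries in both siRNAs. The share of all genes without overlap in this direction is not given here. DNA methylation itself was not analysed here.

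For the knockdown at 72 h, edgeR called 0 genes in each of the 5 lists, and their medians lay between -0.14 (base excision repair) and 0.06 (germline genes). At an unadjusted p below 0.05 the counts were 4 of 12 for base excision repair, all lower, 1 of 8 for the readers, 2 of 15 for the partners and 0 of 11 for the germline genes, against 12.9% of all genes. DESeq2 called 2 of these genes and limma-voom none. They were *Gadd45b*, a relative of *Gadd45a*, at 9.18 ± 6.61 CPM in Gl2-KD and 4.44 ± 1.98 CPM in Srrm2-KD (SD, n = 3, edgeR log2 fold change -0.96, SE 0.30, adjusted p = 0.244), and *Mbd1*, a methyl-CpG binding protein, at 2.13 ± 0.398 and 3.41 ± 0.540 CPM (0.70, SE 0.22, adjusted p = 0.244). *Dppa3*, which protects DNA from TET activity and limits UHRF1, differed by 0.43 (SE 0.13, edgeR adjusted p = 0.241). The next by p were *Ung* (-0.27) and *Neil1* (-0.36) in repair, *Cxxc5* (-0.31) and *Zfp57* (-0.12) among the partners, *Zbtb4* (0.62) and *Mbd4* (-0.21) among the readers, *Idh2* (-0.64) and *Ahcy* (0.24) among the donor genes, and *Mael* (0.37), *Slc25a31* (0.23) and *Dazl* (-0.23) in the germline list, none of them called by edgeR.

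Likeness of pattern was described for the genes called in any comparison, by Pearson r of log2 CPM over the 12 libraries after each experiment's mean was subtracted, among 12870 genes. The libraries share their siRNA and time, so that r has no p here. *Dnmt3l* was most like *Dusp12* (r = 0.977), *Zp3* (0.973) and *Oaz1* (0.972), and *Dnmt3b* was most like *Gdf3* (0.977), *Scn3a* (0.974) and *Arxes1* (0.972). *Dnmt1* was most like *D17Wsu92e* (0.993), *Srrm1* (0.980) and *Nova2* (0.979), and *Uhrf1* was most like *Aebp1* (0.972), *Top3a* (0.971) and *Cfp* (0.967). *Tet1* was most like *Zbtb37* (0.924), *Chd9* (0.923) and *Rictor* (0.917). *Tet3* was most like *Lat* (0.961), *Itgal* (0.952) and *Zfp600* (0.952), *Tet2* like *Fam120c* (0.908), *Krt19* (0.893) and *Phlda1* (0.850), and *Tdg* like *Prr19* (0.977), *Mospd2* (0.975) and *Zfp712* (0.971).

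Reads of near-identical or overlapping genes limit a few of the values. The processed pseudogene *Tdg-ps* received 17.7% to 24.2% of the summed estimate of *Tdg* and *Tdg-ps*, so that *Tdg* levels are uncertain. *Dnmt3c*, a rodent paralog of *Dnmt3b*, took at most 0.0592% of their sum, the antisense gene *Dnmt3bos* at most 0.119% of its sum with *Dnmt3b*, and *Dnmt3a-ps1* and *Dnmt3l-ps1* were at 0 in all 12 libraries. *Aire* lies on the strand opposite to *Dnmt3l* and shares 67 exon bases with it, with 4.09% to 26.2% of their summed estimate, and whether the counting used strand is unknown from the sources used here. In the GENCODE M21 annotation (GRCm38) *Dnmt3a* (ENSMUSG00000020661) is at chr12:3806007-3914443 on the plus strand, *Dnmt3b* (ENSMUSG00000027478) at chr2:153649450-153687730 on the plus strand, *Dnmt3l* (ENSMUSG00000000730) at chr10:78041947-78063622 on the plus strand and *Tet1* (ENSMUSG00000047146) at chr10:62804570-62908996 on the minus strand, all protein-coding genes.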

How the data were processed

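PolyA+ RNA-seq of the 12 libraries was analysed from the deposited table. With Kallisto 0.46.1 and the GENCODE M24 transcripts as its index, the authors estimated counts and deposited 1 expected count per gene and library, not normalised. The summing of transcripts to genes and the strand setting are not given in the sources used here. In GENCODE M21, of 42450 identifiers, 42156 matched symbols and 294 did not. The table has 0 spike-in rows and 0 columns were left unused.

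Counts were rounded and fitted in edgeR 4.0.16 (R 4.3.3): filterByExpr (minimum count 10, minimum total 15) kept 19410 genes, TMM scaled the libraries, and glmQLFit (legacy=TRUE) with glmQLFTest had terms for the 4 groups and the experiment as a block. The study's methods use the RNA processing day as covariate, and the experiment number stood in for it. Deviations from the group means correlated across genes at 0.281 to 0.747 in the 18 library pairs that share a number. In the 36 pairs that differ in both number and group they correlated at -0.628 to 0.231, and pairs within a group were left out. The numbers were therefore taken to pair the samples. The threshold for a call was 0.05 after Benjamini-Hochberg adjustment across the 19410 genes, two-sided. The biological coefficient of variation was 0.22, with 6 residual and 5.09 prior degrees of freedom. At these depths 1 CPM stands for 73.3 to 162 counts. Of the 10 genes, *Tet3* had the fewest counts after *Tet2*, 332 to 2151, so that counting error is small beside the spread between libraries for those other than *Tet2*. *Tet2* estimates reached 0, and some genes of the lists, such as *Asz1*, lay far below 1 CPM. DESeq2 1.42.0, limma-voom 3.58.1, other scalings, filters and blocks, and leaving out libraries were the alternatives, and the scripts were tested on simulated data.

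The 10 genes, the lists and the tests were chosen with earlier results of these data known. The genes named are the 10, *Srrm2*, at most 3 genes a list by smallest p in 72 h minus 24 h (mean of both siRNAs) and in the knockdown at 72 h, and the 3 most like each called gene. Some results of the donor list are not reported here. *Gadd45a* was added so that a count of 1 is named. Levels of different genes were compared as CPM per kb of the longest coding transcript. RefSeq windows matched all 10 genes by symbol.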

Additional observations from a re-analysis of the deposited data

How the results depend on the processing

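Of 1935 recomputed values for 9 genes, *Tet2* left out, 1859 kept their direction, 60 changed it when libraries were left out and 16 under other settings. The cause of each change was not tested. The study's groups share experiment numbers, which paired the samples, and the main design has that replicate block. Counts of called genes are given first. For the knockdown at 72 h, 0 became 2 with DESeq2, 1 with a replicate block per experiment and time point together, 1 with the time point fitted alone, and 0 to 1 when libraries were left out, the 1 being *Dnmt3a* once library 3 of Srrm2-KD at 24 h was dropped. For the mean of both times, 0 became 1 with DESeq2, 1 with no filter on low counts, 3 with the block per experiment and time point, and 0 to 1 without libraries. For 72 h minus 24 h in Gl2-KD, 1 became 2 with DESeq2, 0 with no replicate block, 0 with a block per experiment and siRNA together, and 0 to 1 without libraries. In Srrm2-KD, 0 became 1 with DESeq2. For the mean of both siRNAs, 2 became 0 with no replicate block, 1 with the block per experiment and siRNA, and 0 to 4 without libraries.

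Per kb of merged exons, the median levels were 6.80 for *Dnmt3a*, 87.7 for *Dnmt3l*, 143 for *Uhrf1*, 5.12 for *Uhrf2* and 12.4 CPM per kb for *Tdg*. Without 1 experiment, the log2 difference of *Dnmt3b* to *Dnmt3a* for the knockdown at 24 h ran from -0.12 to 0.016, that of *Dnmt3l* to its partners for the knockdown at 72 h from -0.13 to 0.17, and that of *Uhrf1* to *Dnmt1* from -0.0425 to 0.038 for the knockdown at 24 h and from -0.083 to 0.075 with time in Srrm2-KD.

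For single genes, some log2 fold changes changed sign, the largest being the 0.31 of *Dnmt3a* for the knockdown at 24 h. *Tet1* for the knockdown at 24 h was -0.015 with limma-voom, -0.00418 with library totals, -0.079 with no replicate block, -0.0038 with the block per experiment and time point and -0.010 with the time point alone. *Dnmt1* with time in Gl2-KD was -0.017 with DESeq2, -0.017 with RLE factors, -0.034 with library totals, -0.0039 with no filter and -0.0095 with at least 10 counts in every library. *Tet3* with time in Srrm2-KD was 0.011 with limma-voom, 0.018 with no replicate block and 0.0075 with length offsets. In experiment 1 minus the others, *Dnmt3a* was 0.050 with library totals, and *Uhrf2* was -0.011 with limma-voom and -0.10 with length offsets. There, library totals moved the median of all genes to 0.12 and no filter to 0.13. With libraries left out, the knockdown at 24 h ran from -0.15 to 0.016 for *Dnmt1*, from -0.025 to 0.47 for *Dnmt3a*, from -0.16 to 0.18 for *Dnmt3l*, from -0.13 to 0.0090 for *Uhrf1*, from -0.16 to 0.12 for *Tet1* and from -0.074 to 0.14 for *Tet3*. *Tet1* ran from -0.074 to 0.29 for the knockdown at 72 h and from -0.066 to 0.16 for the mean of both times. The interaction ran from -0.040 to 0.35 for *Dnmt3b*, from -0.091 to 0.26 for *Tet1* and from -0.03515 to 0.055 for *Tdg*. With time in Gl2-KD, *Dnmt1* ran from -0.092 to 0.071 and *Tet1* from -0.089 to 0.23. In Srrm2-KD, *Tet1* ran from -0.018 to 0.31 and *Tet3* from -0.14 to 0.058. *Dnmt3a* with time, mean of both siRNAs, ran from -0.13 to 0.30. In experiment 1 minus the others, *Dnmt3a* ran from -0.14 to 0.045, *Dnmt3l* from -0.016 to 0.24 and *Uhrf2* from -0.13 to 0.10. *Tet2* was left out because its estimates reach 0, the cause of which was not tested.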
